A study of Mus musculus with 8 samples.

Results

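The Hox genes encode homeodomain transcription factors that lie in 4 clusters in the mouse genome, Hoxa, Hoxb, Hoxc and Hoxd. All rows whose symbol reads Hox, a letter from a to d and a number were taken, which gave 33 of the 24033 genes in the deposited table. Hoxa held 11 of them, Hoxb 8, Hoxc 8 and Hoxd 6. The annotation lists 39 such genes, and Hoxb1, Hoxb13, Hoxc12, Hoxd1, Hoxd12 and Hoxd13 were not analysed here.

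RNA was sequenced from the soleus, a slow hindlimb muscle, of mice aged 2 months. The 4 MyoCre samples came from mice of genotype Myogenin-Cre/+, and the 4 K15-SKO samples from mice of genotype Myogenin-Cre/+;K15F/F, in which K15F stands for a floxed Klf15 allele, so both groups carried the Cre transgene. The myogenin gene is active in differentiating muscle cells, so the deletion is directed at muscle fibres and not at the other cells of the tissue. The labels number the samples without saying that each came from a separate animal, so p-values measure the spread between these samples. Levels are given as FPKM, a unit inferred from the values (fragments mapped per transcript length, scaled by library size), which allows a comparison between genes per transcript length.

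During development Hox genes are switched on along the body axis in the order of their position in the cluster, and genes of like position in different clusters, called paralogues, carry the same number. Low numbers mark anterior and high numbers posterior territories. In the limb buds, the high-numbered Hoxa and Hoxd genes pattern the segments from shoulder or hip to digits, and Hoxc10 and Hoxc11 are known as hindlimb genes, whereas Hoxc4 and Hoxc5 are known from the forelimb bud. Cells of adult tissues, fibroblasts among them, retain a Hox pattern that reflects their position in the body. Hox proteins bind DNA together with homeodomain cofactors of the TALE class, and Polycomb and trithorax proteins hold the clusters in a silent or an active state.

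On the mm10 build the members of Hoxa span chr6:52155590-52260880 on the minus strand. Those of Hoxb span chr11:96271457-96354012, those of Hoxc chr15:102921103-103036852 and those of Hoxd chr2:74679557-74748442, all on the plus strand. The stretches measure 105.3, 82.6, 115.8 and 68.9 kb. Hoxd8 lies at chr2:74704615-74707933, Hoxc10 at chr15:102966796-102971893 and Hoxa10 at chr6:52231197-52240854.

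Because the homeobox is similar in all members, the longest run of identical bases was sought between the GENCODE transcripts of members on different clusters. The run of the paralogues Hoxb9 and Hoxd9 is shown because these genes differ in level in this muscle while they share coding sequence.

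Hoxb9 and Hoxd9: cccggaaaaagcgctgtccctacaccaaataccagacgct

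This run had 40 bases (chr11:96274660-96274699 and chr2:74699216-74699255, both plus strand) and lay in exon 2 of 2 of both genes. Of 402 pairs of members on different clusters, 17 shared a run of at least 30 bases and 2 a run of at least 50 bases. The median longest run was 16 bases over all pairs, 19 bases over the 33 pairs with the same paralogue number and 15 bases over the other 369. A fragment that lies within such a run could belong to either gene. Neither the read length nor the handling of reads with several matches is stated in the sources used here, so a low member such as Hoxb9 carries that uncertainty.

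The highest Hox levels in the soleus were those of some, not all, genes in the middle and posterior part of Hoxa, Hoxc and Hoxd. Hoxb was low throughout. Of the 33 members, 15 averaged 1 FPKM or more across all 8 libraries, the minimum for the genotype test. They were 7 of 11 Hoxa genes, 6 of 8 Hoxc genes, 2 of 6 Hoxd genes and 0 of 8 Hoxb genes. Just inside the minimum stood Hoxa13 with a mean of 1.26 and Hoxa4 with 1.31 FPKM, and just outside it Hoxd4 with 0.857 and Hoxa11 with 0.830 FPKM. A low value was seldom 0, since 29 of the 33 members were above 0 in all 8 libraries. Since this is whole muscle, fewer cells of a type and less RNA per cell cannot be told apart.

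**Figure D1:**
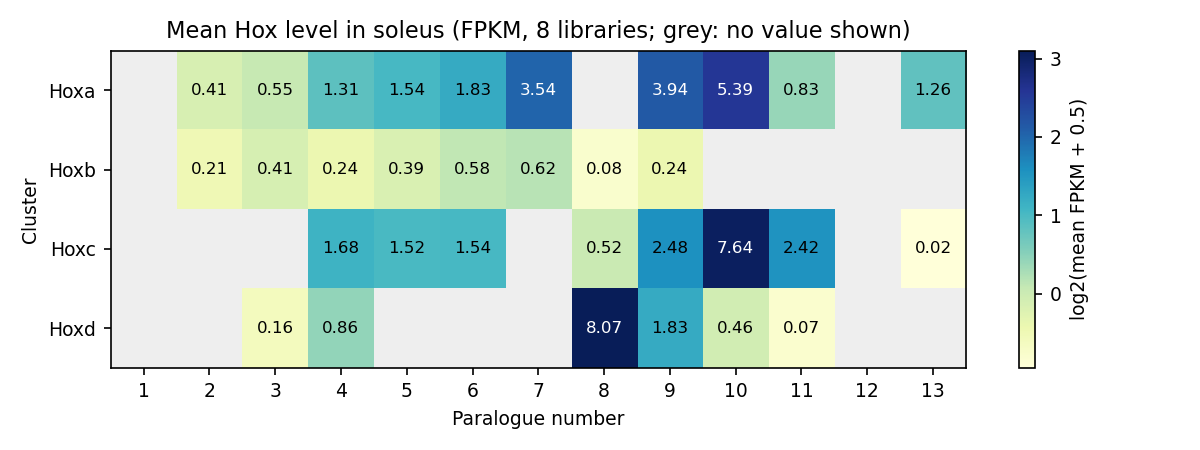
Mean level of each member over the 8 libraries in FPKM, by cluster (rows) and paralogue number (columns), with colour on the log2(mean FPKM + 0.5) scale; grey positions have no value shown. The 3 darkest positions are Hoxd8 (8.07), Hoxc10 (7.64) and Hoxa10 (5.39), and the Hoxb row stays below 1.

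Hoxd8 had the highest mean of all members, 8.07 ± 0.857 FPKM (SD, n = 8). It is a Hoxd gene of the middle group, and its product is a homeodomain factor of trunk patterning. Its values were 7.08, 7.77, 7.95 and 8.10 FPKM in MyoCre replicates 1 to 4, and 9.51, 8.53, 6.90 and 8.71 FPKM in K15-SKO replicates 1 to 4. The libraries lay close together, with a coefficient of variation of 10.6% and overlap between the genotypes.

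Hoxc10, one of the hindlimb genes, followed with 7.64 ± 1.92 FPKM (SD, n = 8). It measured 10.1, 8.90, 7.06 and 5.35 FPKM in the MyoCre libraries and 9.68, 7.62, 4.71 and 7.68 FPKM in the K15-SKO libraries. Each genotype had a library near 10 and another near 5 FPKM, so that the ranges overlapped over most of their length. Hoxc10 has 1 annotated transcript of 1909 bases, of which 8.70% are also exonic in Hoxc5, and its value rested on an estimated 108 to 376 fragments per library.

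Hoxa10, a gene of limb and reproductive tract patterning, measured 6.20, 5.19, 5.97 and 4.76 in MyoCre and 7.13, 5.46, 3.35 and 5.02 FPKM in K15-SKO muscle. The highest and the lowest value both came from K15-SKO libraries. Together Hoxd8, Hoxc10 and Hoxa10 made up 40.0% ± 1.13 (SD, n = 8) of the summed Hox level. They were the top 3 in 7 of 8 libraries. In K15-SKO replicate 3 Hoxa7 took the third place.

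Hoxd8 was first in 5 libraries and Hoxc10 in the other 3, so the order of this pair was not fixed. Hoxc10 exceeded Hoxa10 in 8 of 8 libraries, and Hoxa10 exceeded Hoxa9 in 8 of 8. Hoxa9 and Hoxa7, the next pair, each led in 4 libraries. Among all 24033 genes, 78.3% had a lower mean than Hoxd8 and 77.5% a lower mean than Hoxc10. The median coefficient of variation of the 15 members over the libraries was 25.2%, against 22.9% over the 8039 genes with means of 1 to 10 FPKM. Below Hoxa7, no pair of neighbours among the 15 kept its order in all 8 libraries.

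Hoxa9 is a regulator of blood progenitors and of posterior patterning. It measured 4.69, 3.60, 3.92 and 4.29 in MyoCre and 6.14, 3.20, 1.89 and 3.78 FPKM in K15-SKO muscle. The MyoCre values fell within the wider K15-SKO range. Hoxa7 measured 4.79, 3.10, 3.20 and 1.59 in MyoCre and 3.26, 3.75, 3.90 and 4.75 FPKM in K15-SKO muscle. Its highest and lowest values were both in MyoCre, and 20.4% of its exonic bases lie opposite the antisense RNA Hoxaas3.

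Hoxc9 and Hoxc11 flank Hoxc10 in the order of numbers. Hoxc9 had 2.97, 2.67, 2.71 and 2.01 in MyoCre and 3.56, 2.82, 1.06 and 2.07 FPKM in K15-SKO muscle. Hoxc11, the other hindlimb gene, had 2.11, 2.97, 3.17 and 2.49 in MyoCre and 2.43, 2.40, 1.68 and 2.15 FPKM in K15-SKO muscle. For both, K15-SKO replicate 3 was the lowest library and the genotypes overlapped.

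Hoxd9 measured 2.53, 1.39, 1.68 and 1.39 in MyoCre and 2.07, 1.43, 2.10 and 2.08 FPKM in K15-SKO libraries. Hoxa6 measured 1.34, 1.81, 1.92 and 1.81 in MyoCre and 2.41, 2.77, 0.674 and 1.94 FPKM in K15-SKO libraries. Its transcript is short, and its value rested on an estimated 7.86 to 35.0 fragments, so counting error is large in it. Hoxa5, a gene needed for lung and neck patterning, measured 2.16, 1.66, 1.53 and 1.52 in MyoCre and 1.56, 1.61, 0.845 and 1.42 FPKM in K15-SKO libraries. In each of these genes the ranges of the genotypes overlapped.

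The genes known from the forelimb bud were also measured in this hindlimb muscle. Hoxc4 had 2.41, 1.46, 1.62 and 1.97 in MyoCre and 1.65, 1.84, 0.644 and 1.81 FPKM in K15-SKO muscle. Hoxc5 had 1.26, 1.46, 1.94 and 1.47 in MyoCre and 1.82, 1.57, 1.29 and 1.34 FPKM in K15-SKO muscle. Their means of 1.68 and 1.52 FPKM were below those of Hoxc10 and Hoxc11, and the reads behind the Hoxc5 value can in part come from Hoxc10, with which it shares 166 exonic bases.

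Hoxc6 had 2.05, 1.56, 1.44 and 1.12 in MyoCre and 1.79, 1.39, 0.913 and 2.01 FPKM in K15-SKO libraries. Hoxa4 had 1.59, 0.965, 0.976 and 1.31 in MyoCre and 1.43, 1.17, 1.27 and 1.74 FPKM in K15-SKO libraries. Hoxa13, a gene of the digits and of the end of the gut and urogenital tract, had 2.12, 1.08, 1.52 and 1.06 in MyoCre and 0.986, 1.55, 0.773 and 0.968 FPKM in K15-SKO libraries. Hoxa13 was higher than its neighbour Hoxa11 in 6 of 8 libraries.

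**Figure D2:**
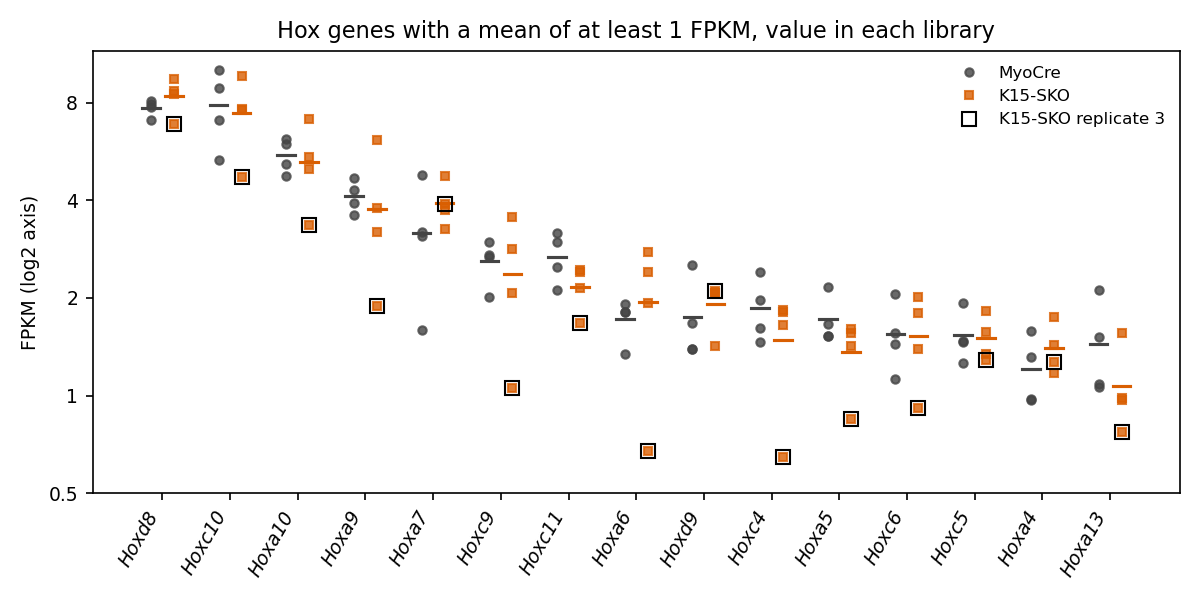
FPKM of the 15 members with a mean of at least 1 in each library, on a log2 axis, ordered by mean; grey circles are MyoCre, orange squares K15-SKO, short lines the means of 4, and open squares mark K15-SKO replicate 3. The genotypes overlap for every gene shown, and K15-SKO replicate 3 is the lowest of the 8 libraries for 11 of the 15.

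The other 18 members had means from 0.0195 FPKM for Hoxc13 to 0.857 FPKM for Hoxd4, and 5 of them reached 1 FPKM in some library. Hoxa2 and Hoxa3, near the anterior end of Hoxa, had means of 0.405 and 0.547 FPKM. Hoxd3 had 0.157 FPKM, and 53.1% of its exonic bases also belong to the overlapping gene model Gm28230. The paralogues 1 to 3 together held 3.57% of the summed Hox level, the paralogues 4 to 8 held 46.3%, and the paralogues 9 to 13 held 50.1% (45.8% to 53.9% over the libraries).

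Hoxb values ran from 0 to 1.03 FPKM over all its members and libraries. Hoxb7 and Hoxb6 were highest, with means of 0.622 and 0.580 FPKM, and Hoxb8 was lowest with 0.0762 FPKM. Hoxb3 had 0.410 FPKM, but 52.9% of its exonic bases lie opposite Hoxb3os, and without a stated strand setting the pair cannot be told apart. Hoxb2 was listed at 0 in 1 library and Hoxb8 in 2.

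Of the members at the far end of the clusters, Hoxc13 and Hoxd11 were close to or at 0, whereas Hoxa13 was not. Hoxc13, a hair and nail gene, was listed at 0 in 5 of 8 libraries and had at most 0.0588 FPKM. Hoxd11 was listed at 0 in 6 of 8 libraries, and its values above 0 were 0.186 and 0.375 FPKM in K15-SKO replicates 1 and 3. Hoxd10 had 0.232 to 0.721 FPKM. Hoxa11, a gene of the forearm and shank segment, had 0.506, 0.795, 0.600 and 0.622 in MyoCre and 1.22, 1.47, 0.840 and 0.584 FPKM in K15-SKO libraries. Of the Hoxa11 exonic bases, 35.0% lie opposite Hoxa11os, which had a mean of 0.557 FPKM.

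Some steps between neighbours in a cluster were steep. Hoxa11 had 0.154 times the mean of Hoxa10 and was lower in 8 of 8 libraries. Within Hoxc, the level dropped to 0.339 times from Hoxc6 to Hoxc8, rose 4.76-fold from Hoxc8 to Hoxc9 and 3.07-fold to Hoxc10, and dropped to 0.317 times at Hoxc11, each in 8 of 8 libraries. Hoxd8 stood alone in its cluster, 9.41-fold above Hoxd4 on one side, while Hoxd9 on the other had 0.227 times its level, in 8 of 8 libraries each. In contrast, the levels of Hoxc4, Hoxc5 and Hoxc6 differed by less than the spread between libraries. Of the Hoxd4 exonic bases, 39.1% also belong to the gene model Gm28230, so the step from Hoxd4 to Hoxd8 is less certain.

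Paralogues of the same number differed by cluster. In group 8, Hoxd8 had 15.5 times the mean of Hoxc8, with 10.7 to 29.5 times in single libraries. In group 10, Hoxc10 had 1.42 times the mean of Hoxa10 (1.12 to 1.71) and 16.8 times that of Hoxd10 (10.6 to 38.4). In group 9, Hoxa9 had 1.59 times the mean of Hoxc9 and 16.5 times that of Hoxb9, and was higher in 8 of 8 libraries. In group 11, Hoxc11 had 2.92 times the mean of Hoxa11, again in 8 of 8 libraries. In groups 4 to 9, every Hoxb gene lay below each of its measured Hoxa, Hoxc and Hoxd paralogues in all 8 libraries. Hoxa5 against Hoxc5 and Hoxa6 against Hoxc6 gave ratios of 1.01 and 1.19, with the Hoxa gene higher in 5 of 8 libraries.

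Summed by number, group 10 held the most, 13.5 ± 3.06 FPKM (SD, n = 8) or 25.3% of the Hox sum. Groups 8 and 9 followed with 8.67 and 8.49 FPKM. Summed by cluster, Hoxa had 20.7 ± 3.65, Hoxc 17.8 ± 3.68, Hoxd 11.4 ± 1.11 and Hoxb 2.77 ± 0.659 FPKM. Their shares of the Hox sum were 39.2%, 33.5%, 22.0% and 5.24%.

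Promoters of members that differ in level are shown next, as the 250 bases before the start of the gene in RefSeq (GRCm38.p6, the mm10 assembly), 5′ to 3′ on the gene's strand. Hoxd8 (chr2:74704365-74704614, plus strand) is the highest member, and Hoxb8 (chr11:96281655-96281904, plus strand) its low paralogue. Hoxa7 (chr6:52218574-52218823, minus strand) holds several matches to CACCC, a box that Kruppel-like factors such as KLF15 are known to bind. Capitals mark CACCC and its reverse complement GGGTG, the only letters searched, on both strands.

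Hoxd8: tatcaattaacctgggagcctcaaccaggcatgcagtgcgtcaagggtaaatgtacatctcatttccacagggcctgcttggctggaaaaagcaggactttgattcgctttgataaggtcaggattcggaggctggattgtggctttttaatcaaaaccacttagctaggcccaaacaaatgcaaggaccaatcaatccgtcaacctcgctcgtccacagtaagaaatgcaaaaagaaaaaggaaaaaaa

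Hoxb8: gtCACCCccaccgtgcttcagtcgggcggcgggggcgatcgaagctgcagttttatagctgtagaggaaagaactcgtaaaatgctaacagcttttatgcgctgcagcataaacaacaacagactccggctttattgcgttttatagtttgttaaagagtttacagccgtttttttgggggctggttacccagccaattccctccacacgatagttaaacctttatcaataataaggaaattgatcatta

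Hoxa7: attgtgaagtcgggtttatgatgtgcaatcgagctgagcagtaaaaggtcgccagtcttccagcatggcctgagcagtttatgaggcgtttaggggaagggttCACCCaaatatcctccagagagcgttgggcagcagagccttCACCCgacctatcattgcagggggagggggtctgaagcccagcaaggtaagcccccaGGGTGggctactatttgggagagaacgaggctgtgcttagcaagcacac

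Hoxd8 had 0 matches, Hoxb8 had 1 and Hoxa7 had 3. RefSeq promoters were matched for 18 of the 33 members, with 20 entries, and 12 of these held the letters, as did 52.0% of the 32851 promoters of the same length. The member promoters had a median GC content of 56.4%, against 52.4% in all promoters. Their median ratio of observed to expected CpG was 0.72, against 0.37. That ratio was 0.49 over the 10 entries of members with a mean of at least 1 FPKM and 0.76 over the 10 entries of members below it. Single entries overlapped widely, with 0.27 to 1.11 among the first and 0.16 to 0.97 among the second. The Hoxd8 and Hoxb8 promoters had 0.49 and 0.97 at the same GC content of 44.4%.

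The series asks how the transcriptome of the muscle differs when Klf15 is deleted, and here that question is put to the Hox genes. Klf15 itself was at 41.6 ± 12.7 FPKM in the controls and at 16.2 ± 2.58 FPKM after deletion (SD, n = 4 per genotype), a log2 fold change of -1.28 (SE 0.25, limma adjusted p = 0.0315). No Hox gene changed past the threshold: of the 15 tested, 0 had an adjusted p under 0.05 in limma, 0 had an unadjusted p under 0.05, and 0 had libraries that did not overlap between the genotypes. Over all 12535 genes tested, 0.550% were called (69 genes, of which 46 were listed at 0 in every MyoCre library), 4.33% had an unadjusted p under 0.05, and 3.35% did not overlap. With so small a background, a count of 0 among 15 is near what these shares give, and it is not a result particular to the Hox genes.

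The intervals say how large a difference the data leave possible. The log2 fold changes (K15-SKO minus MyoCre, on the log2(FPKM + 0.5) scale, which understates changes of low genes) ran from -0.30 for Hoxa13 to 0.33 for Hoxa7. All 15 of the 95% intervals lay within -1 and 1, that is, within a doubling or halving on this scale, and all held 0. For Hoxd8 the difference was 0.11 (SE 0.17, interval -0.25 to 0.47). For Hoxc10 it was -0.08 (SE 0.24, interval -0.60 to 0.44), and for Hoxa10 -0.11 (SE 0.21, interval -0.56 to 0.35). The smallest unadjusted p among the 15 was 0.192, for Hoxc11, with a log2 fold change of -0.25 (SE 0.18, interval -0.65 to 0.14, limma adjusted p = 0.957).

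**Figure D3:**
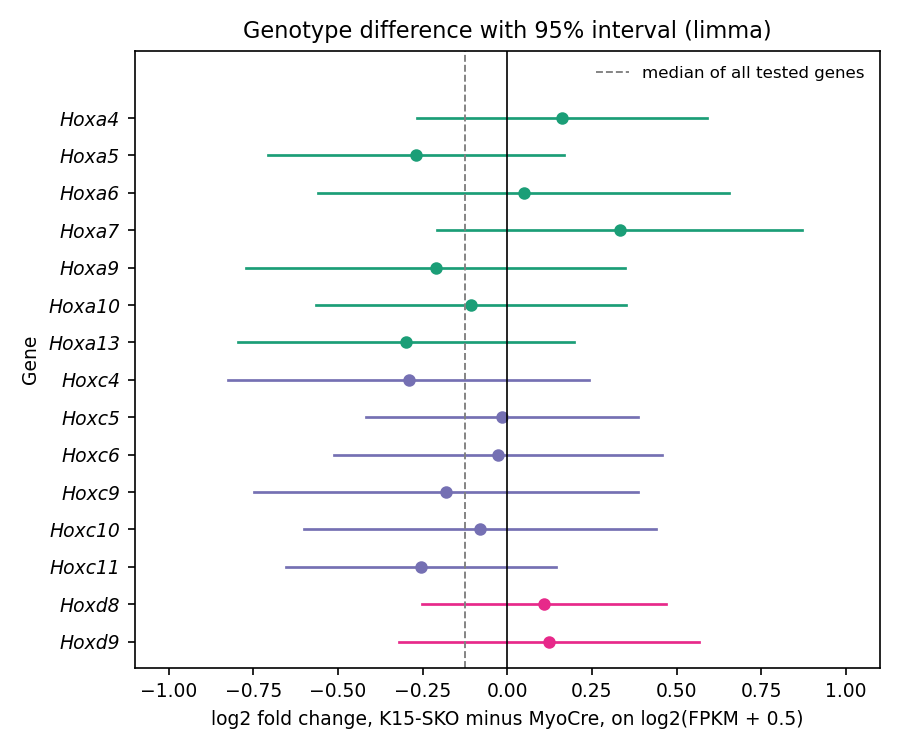
Log2 fold change of K15-SKO minus MyoCre on log2(FPKM + 0.5) for the 15 tested members (points) with 95% intervals from limma (lines), green for Hoxa, purple for Hoxc and pink for Hoxd; the dashed line is the median of all tested genes, -0.12. Every interval includes 0 and lies within -1 and 1.

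Of the 15, 10 had a log2 fold change below 0 and 5 above. The median over them was -0.08 and the median over all tested genes -0.12, and 9 members lay above that median and 6 below. After median-of-ratios scaling, which moved the median of all genes to 0.00, 6 members were below 0, and without K15-SKO replicate 3 the number was 4, so the direction is not settled. The signs of 8 members turned in at least 1 alternative, and those of Hoxa4, Hoxa5, Hoxa13, Hoxc4, Hoxc11, Hoxd8 and Hoxd9 did not.

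With no minimum level, all 33 members were tested and 0 were called by limma, with 0 at an unadjusted p under 0.05, against 0.350% and 4.29% of all 24033 genes. The smallest unadjusted p was 0.0519, for Hoxc13, which had values at or near 0 in all libraries. The low members Hoxa11, Hoxb3 and Hoxb5 had the next values, with log2 fold changes of 0.40, 0.39 and 0.37. Their K15-SKO means were higher and their libraries overlapped between the genotypes.

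The summed level of all 33 members was 60.7, 52.5, 52.0 and 45.0 FPKM in MyoCre and 64.0, 55.5, 37.6 and 54.9 FPKM in K15-SKO replicates 1 to 4. The means, 52.5 ± 6.42 and 53.0 ± 11.1 FPKM (SD, n = 4 each), differed by 0.461 FPKM, which is less than the spread in either genotype. The sign of that difference was not settled, since it was 5.61 FPKM without K15-SKO replicate 3, -3.20 FPKM without K15-SKO replicate 1 and 4.80 FPKM after median-of-ratios scaling. By cluster, the MyoCre and K15-SKO means were 20.6 and 20.9 FPKM for Hoxa, 2.49 and 3.04 for Hoxb, 18.7 and 17.0 for Hoxc, and 10.8 and 12.1 for Hoxd. The share of Hoxc in the Hox sum was 35.6%, 37.2%, 35.7% and 33.2% in MyoCre and 34.0%, 32.5%, 28.0% and 32.0% in K15-SKO libraries. The Hoxc shares overlapped, since MyoCre replicate 4 lay below K15-SKO replicate 1.

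**Figure D4:**
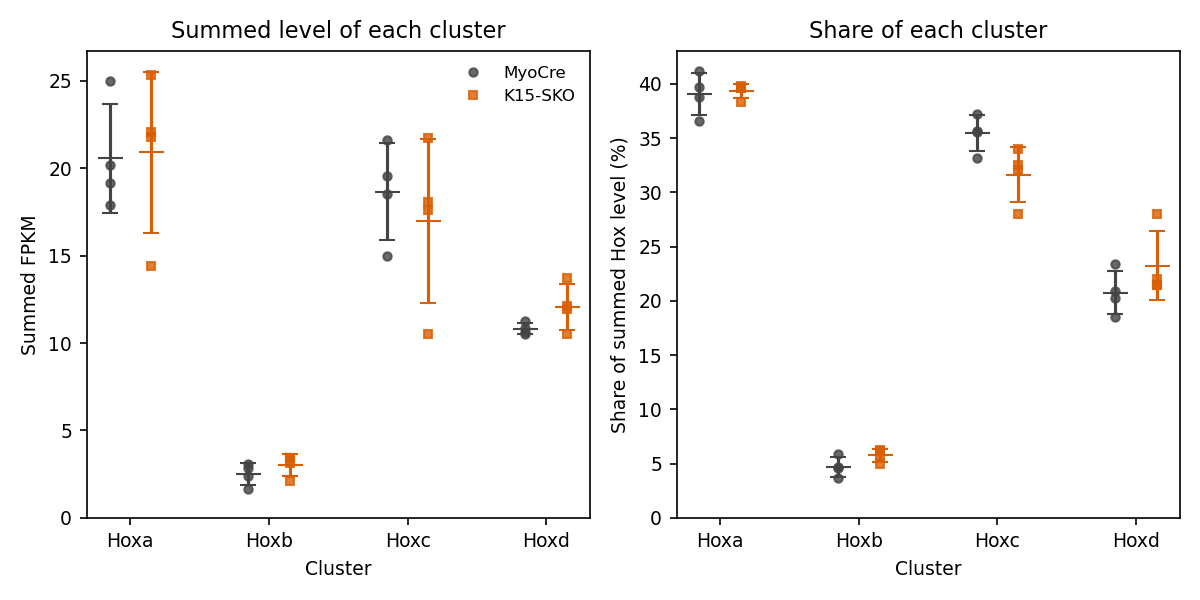
Summed FPKM of each cluster (left) and its share of the summed Hox level in percent (right) in each library; circles are MyoCre, squares K15-SKO, and bars show mean and SD of 4. The genotypes overlap in every cluster on both scales, with Hoxc shares of 33.2% to 37.2% in MyoCre and 28.0% to 34.0% in K15-SKO.

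K15-SKO replicate 3 stood below the other libraries in many members. It was the lowest of 8 for 11 of the 15 tested members, all except Hoxa4, Hoxa7, Hoxc5 and Hoxd9. Its median-of-ratios factor was 0.797, against 0.955 to 1.16 in the other 7 libraries, and after that scaling it was the lowest for 7. Its summed endothelial, macrophage, adipocyte and Schwann cell markers were the highest of the 8 libraries, and its smooth muscle and pericyte sum of 218.9 FPKM the lowest. The adipocyte sum was 498.1 FPKM there, against 254.1 to 346.5 in the others, and 458.0 FPKM of it came from Fabp4, which endothelial cells also express. The other adipocyte markers differed in direction. Adipoq, Plin1 and Lep, at 2.86, 1.14 and 0.104 FPKM, were each second lowest of the 8 libraries. Cidec, at 3.69 FPKM, was second highest, and Retn and Cfd, at 2.16 and 30.1 FPKM, lay in the middle. The part of these differences in the Hox values was not tested.

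Hox cofactors and regulators were measured beside the members, and for none of these lists did a gene pass the test. The TALE list had 9 genes in the table and 6 tested, with a median log2 fold change of -0.08. Pknox2, Pbx2 and Pknox1, genes of this homeodomain class, had means of 5.42, 5.17 and 3.50 FPKM. Of 24 Polycomb and trithorax genes 20 were tested, with a median of -0.05, against -0.12 over all genes. Bmi1 and Rnf2 of the Polycomb repressive complex that marks histone H2A had 21.2 and 11.5 FPKM, Ash2l of the trithorax complexes 11.97 FPKM and Ezh1, a Polycomb methyltransferase of non-dividing cells, 10.98 FPKM.

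Of 14 limb patterning genes 13 were in the table and 5 were tested, with 0 called. Tbx4, the T-box gene of the hindlimb, had a mean of 1.17 FPKM and a range of 0.928 to 1.53. Pitx1, which acts with Tbx4 in the hindlimb, had a mean of 0.126 FPKM and was listed at 0 in 2 of 8 libraries. Tbx5, the forelimb counterpart, was not analysed here. Tbx3, Tbx2, Msx1 and En1 had means of 3.42, 1.67, 1.48 and 1.45 FPKM.

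The noncoding RNAs of the clusters were low, with 7 of 18 in the table and 0 reaching the minimum level. Hotair, transcribed from the Hoxc cluster, had the highest mean, 0.625 FPKM. Hoxa11os, Hoxd3os1 and Hotairm1 followed with 0.557, 0.381 and 0.318 FPKM. Of the genes that flank the clusters 11 were tested and 0 called, and Atp5g3 and Atp5g1, subunits of the mitochondrial ATP synthase, had the highest means with 870.1 and 394.2 FPKM. Hibadh, an enzyme of valine breakdown beside Hoxa, was at 82.0 ± 8.76 FPKM in the controls and at 56.6 ± 9.10 FPKM after deletion (SD, n = 4 per genotype), with a log2 fold change of -0.54 (limma adjusted p = 0.694). It had an unadjusted p of 0.00968 and did not pass after adjustment.

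The tissue was checked by its markers. The 11 muscle fibre markers in the table summed to 16029 to 27127 FPKM in MyoCre and 17320 to 30218 in K15-SKO libraries, and 0 of the 11 tested genes were called. Markers of other cell types were measured as well. The 12 fibroblast markers summed to 1016 to 1487 FPKM in MyoCre and 699.4 to 1229 in K15-SKO libraries, with a median log2 fold change of -0.39 and 0 called. The 8 tendon markers had a median of -0.40 and the 8 macrophage markers -0.41, the 8 endothelial markers 0.14 and the 7 tested smooth muscle and pericyte markers -0.06, with 0 called in each. The 6 tested adipocyte and 5 tested Schwann cell markers had medians of -0.41 and -0.22, with 0 called. K15-SKO replicate 1, with the highest Hox sum of 64.0 FPKM, had the lowest fibroblast sum, and the part of the marker differences in the Hox values was not tested. Of 5 tested satellite cell markers, 1 was called: Cdh15 was listed at 0 in every MyoCre library and had 4.32 to 7.89 FPKM in K15-SKO libraries. It is 1 of 46 called genes listed at 0 throughout MyoCre, and these were all 46 of the genes called higher in limma, so this call is not read as a difference in satellite cells. Bone and cartilage markers summed to at most 0.916 FPKM and keratinocyte markers to at most 1.70 FPKM in any library.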

How the data were processed

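The 8 RNA-seq libraries of soleus muscle were analysed, 4 per genotype. The authors deposited 1 table of values, taken here as FPKM, made with STAR, Cufflinks and Cuffdiff on mm10 per the submitters' processing notes, which name no versions. The unit was inferred from the values. The sources used here do not state the annotation, the strand setting or how libraries were scaled. The table holds 0 value columns of no sample.

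Depth was estimated from the lowest values of long single-transcript genes, taken as 1 fragment, at 7670000 to 22130000 fragments per library, and fragments behind a gene are such estimates. The deposited FPKM summed to 519884 to 652275 per library.

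The genotype test used limma 3.58.1 (R 4.3.3, trend and robust variance, two-sided) on log2(FPKM + 0.5) of the 12535 genes that averaged 1 FPKM or more. The model held genotype alone, and p-values were adjusted by Benjamini-Hochberg over all tested genes and called under 0.05. The fit was tested on simulated data. Levels, sums and ratios have no test. Gene positions, overlaps and transcripts come from GENCODE M21 (GRCm38), matched to 99.4% of gene IDs, and promoters from RefSeq.

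Members were named, those at 1 FPKM or more with the value in each library. A few genes and sequences that these rules take are not reported here. In other lists, genes past the threshold and up to 4 with the highest mean were named, with Pitx1, Tbx4, Tbx5 and Klf15. Hibadh, Hoxb3os and the genes that overlap members were named after their values were seen. The members and lists were chosen with earlier results of these data known. Alternatives were pseudocounts, level minimums, scalings, variance settings, library weights, a replicate block, omission of genes listed at 0 and omission of each library.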

Additional observations from a re-analysis of the deposited data

Results flagged for a closer look

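In 3 members, 1 library lay far from the other 3 of its genotype by a gap test. Groups of 4 were tested for 74 values and chance flags about 1 in 20, so 3 is no more than chance gives. Hoxb2 measured 0.554 FPKM in MyoCre replicate 3, against 0.187 to 0.198 FPKM in the other MyoCre libraries. Hoxc4 measured 0.644 FPKM in K15-SKO replicate 3, against 1.65 to 1.84 FPKM. Hoxd9 measured 1.43 FPKM in K15-SKO replicate 2, against 2.07 to 2.10 FPKM.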

How the results depend on the processing

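The number of Hox genes past the threshold was 0 in all 20 alternatives, including each left-out library, with 288 fits of tested members and a smallest adjusted p of 0.358, under library weights. In limma, members with an unadjusted p under 0.05 numbered 2 of 15 with library weights, against 1393 of all 12535 genes. Without MyoCre replicate 1 they numbered 1 of 15, against 482 of 12533 genes. Counts this small are not read as a result about the Hox genes. The difference in the Hox sum, 0.461 FPKM, ran from -3.20 to 5.61 FPKM with single libraries left out, being 3.19 without MyoCre replicate 1, -2.04 without MyoCre replicate 4, -3.20 without K15-SKO replicate 1 and 5.61 without K15-SKO replicate 3. It was also below 0 without K15-SKO replicate 2 or 4 (-0.384 and -0.178) and without the highest member (-0.224), and it was 4.80, 4.55 and 3.90 under the 3 scalings. These moves and those of the cluster sums were smaller than the spread between libraries. The number of all genes called, 69 at first, was 39 with a minimum mean of 5 FPKM, 157 with library weights and 12 without genes listed at 0 in a genotype, and 59 to 80 with single libraries left out. The cause was not tested for library weights. A minimum of 5 left 3 members in the fit.

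Signs turned for 8 of the 15 members. With median-of-ratios, upper-quartile and quantile scaling, Hoxa10 had log2 fold changes of 0.018, 0.0118 and 0.0034, Hoxc5 0.0875, 0.0828 and 0.0686, Hoxc6 0.0728, 0.0672 and 0.0685, and Hoxc10 0.0479, 0.0415 and 0.0366. With library weights, Hoxa7 had -0.0298, Hoxa9 had 0.2543, Hoxa10 had 0.159, Hoxc5 had 0.1799, Hoxc6 had 0.0144, Hoxc9 had 0.1755 and Hoxc10 had 0.0569. With single libraries left out, Hoxa6 ran from -0.1243 to 0.3686, Hoxa9 ran from -0.4564 to 0.0352, Hoxa10 ran from -0.2574 to 0.0716, Hoxc5 ran from -0.0899 to 0.0738, Hoxc6 ran from -0.1403 to 0.1367, Hoxc9 ran from -0.3741 to 0.0872 and Hoxc10 ran from -0.2396 to 0.1076. The cause was not tested.

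With the replicate number as a block, 0 Hox genes and 78 genes in all were called. Deviations of same-numbered samples correlated at 0.10, 0.23, 0.0022 and 0.28, so the third pair did not vary together and the numbers were not taken to pair the samples. MyoCre replicates 1, 2 and 4 and K15-SKO replicates 2 and 4 correlated best with their own number. MyoCre replicate 3 and K15-SKO replicates 1 and 3 did not, so whether the samples are paired is not settled. Depth limits the low members, whose values rest on few fragments.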
